A study of Mus musculus with 12 samples.

Results

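Phagocytes make superoxide with an NADPH oxidase, and superoxide dismutases and catalase then dispose of it. The transcripts of 9 genes of this system were examined in M1-activated bone marrow-derived macrophages (BM-Mɸs): the oxidase subunits Cybb, Cyba, Ncf1 and Ncf4, the GTPases Rac1 and Rac2, the dismutases Sod1 and Sod2, and catalase, Cat. The genes were chosen by symbol from the 22243 genes of the deposited table. Of these, 8780 genes had a mean of at least 1 TPM (kallisto's estimate of abundance per unit of transcript length, scaled to the same total in every library) over the 12 libraries and were tested, and 8 of the 9 genes of the system were among them, all but Rac1.

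RNA sequencing compared macrophages with and without a deletion of the receptor tyrosine kinase ErbB4, as part of a study of ErbB4 in macrophage activation. The ErbB4myeKO cultures came from 6 mice with floxed ErbB4 and LysMCre, in which the lysozyme M promoter drives Cre recombinase in myeloid cells, and the ErbB4FF cultures from 6 floxed mice without Cre. Each of 6 litters gave 1 mouse of each genotype, on a C57Bl/6 background, and age and sex are not on the labels. Marrow cells of both genotypes were grown with M-CSF, a macrophage growth factor, and all 12 cultures were primed for 16 h with IFN-γ at 100 U/mL and stimulated for 6 h with LPS at 100 ng/mL, so that no unstimulated culture is among them.

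The catalytic core of the phagocyte oxidase is a membrane heterodimer of the Cybb and Cyba products, which carries electrons from cytosolic NADPH across the membrane to oxygen. In resting cells it is inactive, and upon stimulation cytosolic subunits, among them the products of Ncf1 and Ncf4, and a Rac GTPase move to the membrane and switch it on. Superoxide dismutases convert superoxide to hydrogen peroxide, which catalase, peroxiredoxins and glutathione peroxidases break down, and in macrophages IFN-γ and LPS are known to raise both oxidase genes and Sod2.

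The targeted gene did not separate the genotypes. Erbb4 was at 0.583 ± 0.242 TPM (SD, n = 6) in the libraries labelled ErbB4myeKO and 0.450 ± 0.132 TPM (SD, n = 6) in those labelled ErbB4FF, and 4 of 6 litters had the higher value under the ErbB4myeKO label (exact permutation p = 0.250, two-sided). These values were below 1 TPM in every library and cover the whole transcript, not the floxed exon, so they do not check the deletion, and genotypes are given below as labelled. Macrophage markers were high in all libraries, with Cd14 at 2929 TPM (labelled ErbB4myeKO) and 2661 TPM (labelled ErbB4FF) and Adgre1, which encodes F4/80, at 881 and 873 TPM. The 8 lymphocyte markers together never passed 0.886 TPM in a library and the 8 erythroid markers 1.11 TPM. Neutrophils also use this oxidase, and their 12 markers together held between 64.4 and 418 TPM in the libraries labelled ErbB4myeKO and between 65.8 and 235 TPM in those labelled ErbB4FF, mostly S100a8, S100a9 and Csf3r. Of these 12 markers 5 were below 1 TPM in every library (Ly6g, Elane, Mpo, Cxcr2 and Retnlg, the last listed at 0 throughout), and the granule genes Ngp and Camp reached 18.4 and 10.5 TPM. In bulk RNA, fewer cells of a type and less RNA per cell cannot be told apart.

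Each of the 9 genes was measured through 1 transcript, marked as principal by the APPRIS annotation. In GENCODE M21 (GRCm38) these are Cybb-201, 4752 bases at chrX:9435252-9487771 on the minus strand, Cyba-201, 744 bases at chr8:122424776-122432930 (minus), and Ncf1-202, 2721 bases at chr5:134220053-134229625 (minus). Ncf4-201 has 1464 bases at chr15:78244801-78262580 (plus), and on the same chromosome Rac2-201 has 3038 bases at chr15:78559167-78572783 (minus). Sod1-201 has 641 bases at chr16:90220754-90226329 (plus), Sod2-201 has 5861 bases at chr17:13006846-13040063 (plus) and Cat-201 has 2613 bases at chr2:103453849-103485160 (minus). For Cybb, Rac2, Sod2 and Cat between 16.3% and 28.2% of the 31-base words of the transcript recur in other transcripts of the gene. That share was 82.6% for Ncf4, 92.0% for Sod1, 96.9% for Cyba and 100% for Ncf1, so the values of these genes depend most on how the reads were split between transcripts. Sod1 also shares 35.4% of its 31-base words with other genes, so its level may also include reads of those genes.

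For Rac1 the table gives Rac1-201, a transcript of 4159 bases (chr5:143503634-143528036, minus), and none of the other 3 transcripts annotated for the gene. Rac1-201 differs from Rac1-202, of 2325 bases, by longer 5′ and 3′ ends and by lacking exon 4 of the latter, a coding exon of 57 bases at chr5:143509597-143509653 that defines the splice form known as Rac1b. The sequences across that junction, from GENCODE M21, are shown because they mark which form the Rac1 values stand for, with the exon in capitals between 20 bases of flank on each side:
Rac1-201: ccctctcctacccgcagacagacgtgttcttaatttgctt
Rac1-202: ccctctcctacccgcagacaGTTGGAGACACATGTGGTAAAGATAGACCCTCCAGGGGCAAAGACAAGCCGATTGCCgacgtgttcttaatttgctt
Of the 31-base words of Rac1-201, 53.5% also occur in Rac1-202, which was not analysed here.

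Levels of the 9 genes spanned the range from abundant subunits to Rac1-201 near 0. Each of these levels, here and below, is that of 1 transcript, of between 2 (Sod1, Cat) and 8 (Sod2) annotated for the gene. Abundance assigned to other transcripts of the gene is not in it. By mean TPM over the 12 libraries, the order was Cybb (884 TPM), Cyba (789), Sod2 (564), Ncf1 (429.7), Sod1 (323), Rac2 (307), Ncf4 (114), Cat (77.3) and Rac1 (0.282). Cybb was 110th of all genes by mean TPM and Cat 1090th. Cybb and Cyba, neighbours at the top, were not separated over all 12 libraries, as Cybb was higher in 9 of 12 libraries and the gap was smaller than its SD within libraries. The same held for Ncf1 over Sod1 (8 of 12 libraries), Sod1 over Rac2 (7 of 12) and Ncf4 over Cat (10 of 12). Gaps larger than their SD lay between Cyba and Sod2 (11 of 12 libraries), Sod2 and Ncf1 (10 of 12), Rac2 and Ncf4 (12 of 12) and Cat and Rac1 (12 of 12). Without litter 5, a step chosen after seeing the data, the gap also exceeded its SD for Cybb over Cyba (log2 difference 0.50, SD 0.35, 9 of 10 libraries) and for Ncf1 over Sod1 (0.57, SD 0.43, 8 of 10), and no other pair of neighbours changed.

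**Figure D1:**
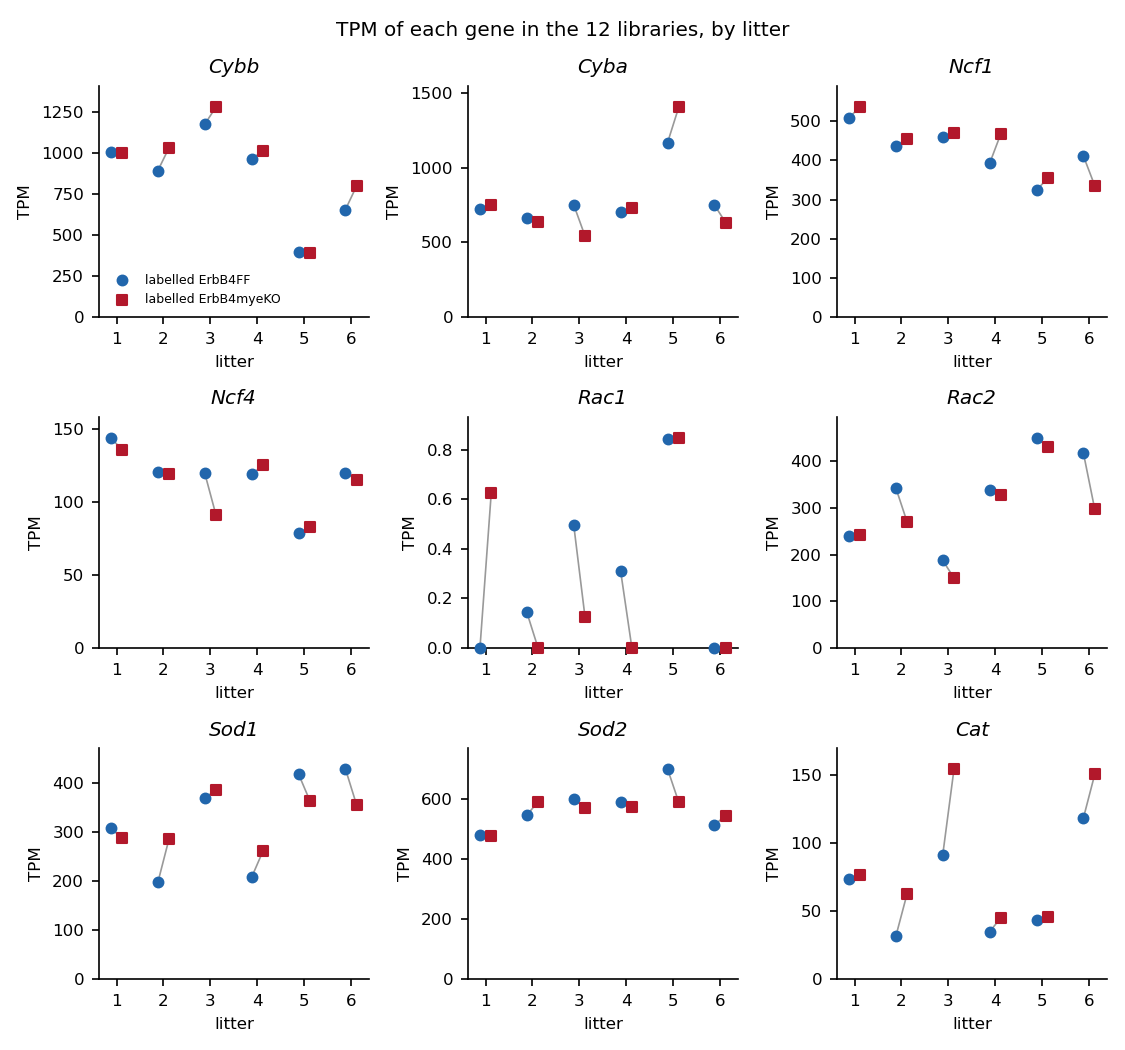
TPM of the 9 genes (vertical axes, each from 0) in the 12 libraries, by litter (horizontal axes), with circles for libraries labelled ErbB4FF, squares for those labelled ErbB4myeKO and a line joining littermates. Littermates lie close together for Cybb while litter 5 is low, Cyba is high in litter 5, the Cat square lies above the circle in every litter, and Rac1 stays below 1 TPM.

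The membrane subunits were abundant under both labels, and neither passed the test for a difference. Cybb, which binds NADPH, FAD and the hemes, had a lowest, median and highest level of 391, 1009 and 1281 TPM in the libraries labelled ErbB4myeKO and of 394, 928 and 1176 TPM in those labelled ErbB4FF. The ranges overlapped almost fully, and the lowest library under each label was that of litter 5. Between littermates, the log2 ratio of ErbB4myeKO over ErbB4FF (of TPM + 0.5 here and below) was 0.00, 0.21, 0.12, 0.07, -0.01 and 0.29 in litters 1 to 6, with a mean of 0.11 and a 95% interval of -0.03 to 0.25. That difference did not pass the test (adjusted p = 0.618, limma with Benjamini-Hochberg adjustment over 8780 genes, higher in 4 of 6 litters).

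Cyba encodes the partner that stabilizes the Cybb product and docks the Ncf1 product. Its lowest, median and highest levels were 543, 683 and 1407 TPM in the libraries labelled ErbB4myeKO and 666, 737 and 1168 TPM in those labelled ErbB4FF. The highest value under each label came from litter 5, and in the other litters Cyba lay between 543 and 751 TPM. The mean log2 ratio was -0.07 (95% interval -0.29 to 0.15), lower in 3 of 6 litters (limma adjusted p = 0.833). Cybb is among the longer transcripts and Cyba among the shortest, and in litter 5 long and short transcripts stood apart in both libraries, as given below.

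The cytosolic subunits were less abundant than the membrane pair. Ncf1, the organizer that is phosphorylated on activation, had a lowest, median and highest level of 336, 462 and 537 TPM in the libraries labelled ErbB4myeKO and of 324, 424 and 509.7 TPM in those labelled ErbB4FF. It was higher under the ErbB4myeKO label in litters 1 to 5 and lower in litter 6, with log2 ratios between -0.29 and 0.25, and 13.9% of all genes tested were higher in at least 5 litters. Ncf4, whose product binds a phosphoinositide of the phagosome, had a lowest, median and highest level of 82.6, 117 and 136 TPM in the libraries labelled ErbB4myeKO and 78.6, 119.7 and 144 TPM in those labelled ErbB4FF. Apart from litter 3, where the log2 ratio of Ncf4 was -0.39, littermates differed by between -0.08 and 0.07. Neither difference passed the limma test, with a mean of 0.04 (95% interval -0.13 to 0.22) and an adjusted p of 0.866 for Ncf1, and -0.07 (-0.24 to 0.10) and 0.781 for Ncf4.

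Rac2, the Rac GTPase of blood cells, had the lowest unadjusted p of the oxidase genes, on the side of lower levels. In litters 1 to 6 it was at 242, 270, 150, 328, 430 and 297 TPM in the libraries labelled ErbB4myeKO and at 239, 342, 187, 339, 449 and 416 TPM in those labelled ErbB4FF. The ranges of the labels overlapped, and within litters Rac2 was lower under the ErbB4myeKO label in 5 of 6, with log2 ratios of -0.34, -0.32 and -0.49 in litters 2, 3 and 6 and between -0.06 and 0.02 in the others. Of all genes tested, 14.3% were lower in at least 5 litters. The mean log2 ratio was -0.21 ± 0.08 (SE, n = 6 litters), or 0.866-fold, with a 95% interval of -0.40 to -0.02. It did not pass the adjusted threshold (limma p = 0.0354, adjusted p = 0.603, exact permutation p = 0.0625). The call at an unadjusted limma p under 0.05 was lost without litter 2, litter 3 or litter 6, where the mean log2 ratio was -0.18, -0.18 and -0.15 (exact permutation p = 0.125 for each). It was also lost in limma without a mean-variance trend and with a covariate from Y-linked genes in place of sex.

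Rac1, the widely expressed relative of Rac2, was listed at or near 0 through its transcript Rac1-201. The libraries labelled ErbB4myeKO of litters 1 to 6 were at 0.624, 0, 0.125, 0, 0.847 and 0 TPM and those labelled ErbB4FF at 0, 0.144, 0.496, 0.310, 0.843 and 0 TPM. Among 12 libraries 5 were at 0, under both labels, and no direction was shared by the litters (2 higher, 3 lower, 1 at 0 in both, exact permutation p = 0.875). These values stand for 1 transcript out of 4 annotated and give no level for the gene Rac1.

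Neither dismutase passed the test. Sod1, the copper-zinc enzyme of the cytosol, had a lowest, median and highest level of 261, 321 and 386 TPM in the libraries labelled ErbB4myeKO and 197, 339 and 429 TPM in those labelled ErbB4FF. Its log2 ratio ran from 0.54 in litter 2 to -0.27 in litter 6, 3 litters each way, with a mean of 0.06 (95% interval -0.21 to 0.33, limma adjusted p = 0.884). Sod2, the manganese enzyme of mitochondria and a target of NF-κB, had a lowest, median and highest level of 475, 572 and 591 TPM in the libraries labelled ErbB4myeKO and 478, 568 and 699.7 TPM in those labelled ErbB4FF. Its log2 ratios lay between -0.25 and 0.12, with a mean of -0.03 (95% interval -0.17 to 0.12, limma adjusted p = 0.898).

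Cat, the peroxisomal catalase, was higher under the ErbB4myeKO label in all 6 litters, the one gene of the 8 tested with a shared direction. In litters 1 to 6 it was at 76.2, 62.8, 154, 45.2, 45.6 and 150.4 TPM in the libraries labelled ErbB4myeKO and at 73.5, 31.5, 91.4, 34.8, 43.1 and 119 TPM in those labelled ErbB4FF. The labels overlapped across litters, since litters 3 and 6 were high and litters 4 and 5 low under both. Within litters the log2 ratio was 0.05, 0.98, 0.75, 0.37, 0.08 and 0.34, largest in litters 2 and 3 and close to 0 in litters 1 and 5. The mean of 0.43 ± 0.13 (SE, n = 6 litters), or 1.35-fold, had a 95% interval of 0.12 to 0.74. The exact permutation p was 0.0312, the smallest that 6 litters allow, and the limma p of 0.0129 became 0.603 after adjustment over 8780 genes. Of all genes tested, 4.82% had 1 direction in all 6 litters, 2.51% higher and 2.31% lower under the ErbB4myeKO label, and Cat was 119th by p.

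Across the system, 4 of the 8 genes tested had a mean ratio above 0 and 4 below, with a median log2 ratio of 0.01 beside -0.00 for all 8780 genes. The median size of the ratio, regardless of sign, was 0.0691 for the 8 genes and 0.131 for all genes. These medians are not matched for abundance. The 8 genes ranked between 110th and 1090th by mean TPM, while the genes tested go down to a mean of 1 TPM. None of the 8 passed an adjusted p of 0.05, and 0% of all genes did in the limma fit. At an unadjusted p under 0.05 there were 2 of the 8, Cat and Rac2, in opposite directions (Cat alone without trend or with the Y-linked covariate), and 721 of all genes, or 8.21% (3.83% higher and 4.38% lower under the ErbB4myeKO label). For no member did the levels under the labels separate without overlap, as they did for 0.0456% of all genes.

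**Figure D2:**
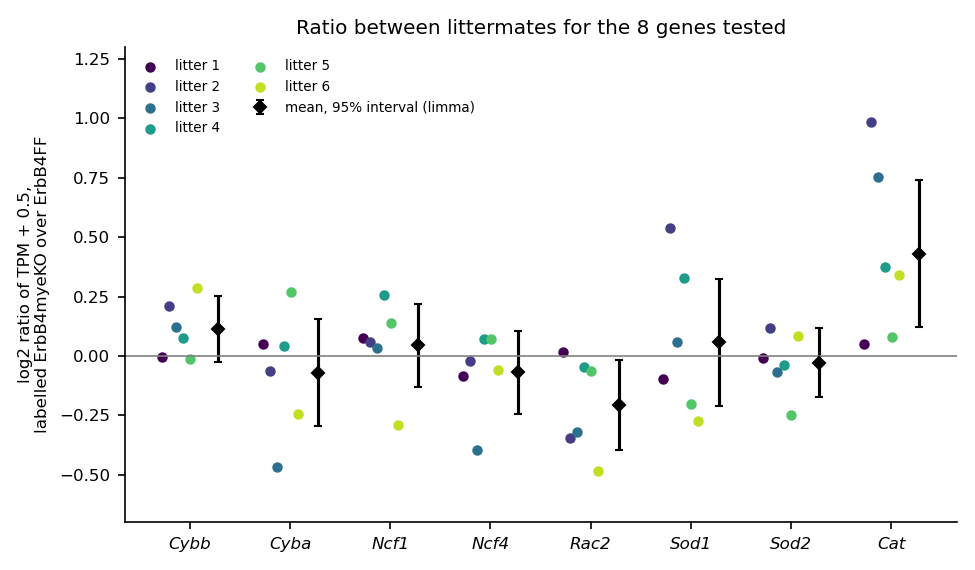
Log2 ratio of TPM + 0.5, labelled ErbB4myeKO over ErbB4FF (vertical axis), for the 8 genes tested (horizontal axis), with a coloured point per litter and a diamond with bar for the mean and its 95% interval from limma. The 6 Cat points lie above 0 with a mean of 0.43, 5 of 6 Rac2 points lie below 0 with a mean of -0.21, and the intervals of the other 6 genes include 0.

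For all 8 genes tested, the litter means had a larger SD than the differences within litters. This was usual, as the ratio of these SDs had a median of 1.09 over all genes tested. Among the 8 genes it ran from 1.11 (Sod1) to 4.91 (Cybb). An SD of means and an SD of differences are on unlike scales. For Cybb, the SD of the litter means was 0.58 on the log2 scale and the SD of the differences within litters 0.12, and litter 3 was 3.12-fold above litter 5. Cat also varied widely, 3.34-fold from litter 4 to litter 6 (SD of litter means 0.77, within litters 0.37), and Rac2 2.62-fold from litter 3 to litter 5 (0.48 and 0.20). Sod2 varied least, 1.35-fold, and 5.56% of all genes tested had litter means closer together than those of Sod2. The medians of these SDs over all genes were 0.41 between litters and 0.34 within, so Cybb stood above the typical gene in spread between litters and below it within. These medians are over genes of all levels tested and are not matched for abundance. The ranges for Cyba (2.01-fold), Ncf4 (1.73-fold), Sod1 (1.67-fold) and Ncf1 (1.54-fold) were below the median of all genes, 2.17-fold.

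Part of this spread sat in litter 5, where short and long transcripts stood apart in both libraries. Relative to the mean of 6 litters, the 787 tested genes under 1 kb had a median log2 deviation of 0.73 in litter 5 and the 2329 genes over 4 kb one of -0.46, while in litters 1 to 4 short genes lay between -0.31 and -0.11 and long genes between 0.12 and 0.18. Litter 6 had the sign of litter 5 at a smaller size, with 0.20 for short and -0.04 for long genes. In litter 5 Cyba deviated by 0.75 and Cybb by -1.08, each on the side of its length class. Sod1, also under 1 kb, deviated by 0.32 in litter 5, but also by 0.32 in litter 6 and 0.27 in litter 3. Sod2, also over 4 kb, went the other way in litter 5, with 0.19. After log2 values had been adjusted for transcript length and GC content, a step chosen after seeing these data, the deviation of Cyba in litter 5 was -0.16 and that of Cybb -0.59. Those of Sod1 and Sod2 there were -0.42 and 0.82. Without litter 5 the range over litters was 1.15-fold for Cyba and 1.69-fold for Cybb, but still 3.34-fold for Cat and 2.10-fold for Rac2. With the adjustment the SD of litter means was smaller for Cybb, Cyba and Rac2 and larger for the other 5 genes, most for Sod2 (from 0.15 to 0.42) and Ncf4 (from 0.27 to 0.49).

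**Figure D3:**
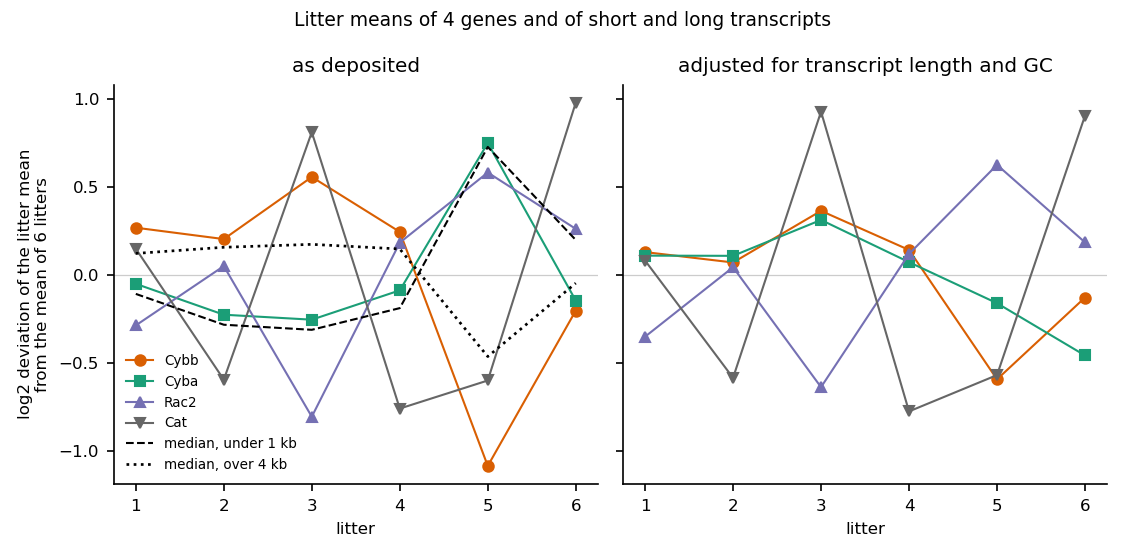
Log2 deviation of each litter's mean from the mean of 6 litters (vertical axes) against litter (horizontal axes) for Cybb, Cyba, Rac2 and Cat, as deposited (left) and adjusted for transcript length and GC (right), with the medians of genes under 1 kb (dashed) and over 4 kb (dotted) on the left. In litter 5 Cyba follows the short genes up to 0.75 and Cybb lies below the long genes at -1.08, and after adjustment Cyba is at -0.16 and Cybb at -0.59 there.

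The length classes were less uneven between littermates than between litters in litters 1 to 5, but not in litter 6. In litter 6 the deviation of short genes exceeded that of long genes by 0.25. The difference between short and long genes in the median log2 ratio of littermates was -0.25 in litter 6 and between -0.07 and 0.01 in the other 5. With the same adjustment, Cat remained higher in 6 of 6 litters with a mean log2 ratio of 0.43, and Rac2 was lower in 6 of 6 with a mean of -0.19 (exact permutation p = 0.0312 for each, the smallest possible). Under that adjustment 5.81% of all genes tested had 1 direction in all 6 litters, 2.53% higher and 3.28% lower. The adjusted p of Cat and Rac2 in limma was then 0.556. The mean log2 ratio of Cybb went from 0.11 to 0.067, that of Cyba from -0.07 to -0.0039, that of Ncf1 from 0.04 to 0.068, that of Ncf4 from -0.07 to -0.017 and that of Sod2 from -0.03 to -0.089, and none of these passed the test (smallest limma adjusted p 0.662, for Sod2).

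Ratios between partner genes within a library were compared next, as subunits act in complexes. The ratio of Cyba to Cybb TPM lay between 0.424 and 0.790 in the libraries labelled ErbB4myeKO of all litters but litter 5 and between 0.639 and 1.14 in those labelled ErbB4FF, and in litter 5 it was 3.60 and 2.96. Ncf1 exceeded Ncf4 by between 2.92-fold and 5.17-fold under the ErbB4myeKO label and between 3.30-fold and 4.12-fold under the ErbB4FF label. Sod2 exceeded Sod1 in all 12 libraries, by between 1.20-fold and 2.84-fold. Ordered as Cyba to Cybb, Ncf1 to Ncf4, Sod2 to Sod1 and Rac2 to Rac1, the mean log2 ratio differed between littermates by -0.18 ± 0.34, 0.11 ± 0.21, -0.09 ± 0.29 and -0.11 ± 0.64 (SD, n = 6 litters). The exact permutation p was 0.312, 0.250, 0.438 and 0.688, with a smallest adjusted p of 0.583 over these 4 ratios. The ratio of Rac2 to Rac1 rests on the pseudocount of 0.5 TPM, because Rac1-201 was at or near 0.

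Other genes of the oxidase and of antioxidant defence were taken from hand-written lists. Of 10 further oxidase family genes, which encode catalytic subunits, organizers and maturation factors of other NADPH oxidases and the GTPase Rac3, 9 were in the table, 8 of them were below 1 TPM in every library, and Duox2 was not matched. Rac3 was the one tested, at 1.71 ± 1.65 and 3.32 ± 2.82 TPM (SD, n = 6 each, labelled ErbB4myeKO first) with a log2 ratio of -0.67 (limma adjusted p = 0.668), and Nox1 followed at 0.487 and 0.533 TPM. Among the catalytic subunits in the table, Cybb was thus the one above 1 TPM in these cells.

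Among 18 genes of oxidase assembly and activation, 17 were tested and none passed an unadjusted p of 0.05, with 5 ratios above 0, 12 below and a median of -0.05. The smallest p values belonged to the kinase Prkcb, which phosphorylates the Ncf1 product (log2 ratio 0.31, limma adjusted p = 0.603, higher in 5 of 6 litters), and the Rac exchange factor Dock2 (-0.25, limma adjusted p = 0.617, lower in 5 of 6).

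Of 16 genes that remove superoxide or peroxide besides Sod1, Sod2 and Cat, 15 were tested, with 6 ratios above 0, 9 below and a median of -0.03. Prdx1, a cytosolic peroxiredoxin, was at 5492 ± 1731 and 4845 ± 1539 TPM (SD, n = 6 each, labelled ErbB4myeKO first), above every gene of the oxidase, and thioredoxin, Txn1, was at 1387 and 1451 TPM. Txnrd1, the reductase that recycles thioredoxin, was the one with an unadjusted p under 0.05, 1 of 15 genes where the share of all genes was 8.21%. In litters 1 to 6 Txnrd1 was at 410, 442, 754, 331, 171 and 427 TPM in the libraries labelled ErbB4myeKO and at 393, 213, 616, 202, 169 and 342 TPM in those labelled ErbB4FF. It was higher in 6 of 6 litters, as were Cat and 2.51% of all genes, by a log2 of 0.41 ± 0.40 (SD, exact permutation p = 0.0312, limma p = 0.0205, adjusted p = 0.603). The peroxidase Gpx1 was at 23.7 and 33.6 TPM with a log2 ratio of -0.44 that did not pass (limma adjusted p = 0.618, lower in 4 of 6 litters).

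The 7 transcription factors known to act on oxidase genes or Sod2 had 3 ratios above 0, 4 below, a median of -0.05 and no unadjusted p under 0.05. Irf8, which drives Cybb in myeloid cells, was at 883 and 844 TPM (labelled ErbB4myeKO first), and Irf1 at 499.6 and 509 TPM. Nfkb1, which encodes an NF-κB subunit, was at 237 and 217 TPM with a log2 ratio of 0.15 (limma adjusted p = 0.660, higher in 4 of 6 litters).

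**Figure D4:**
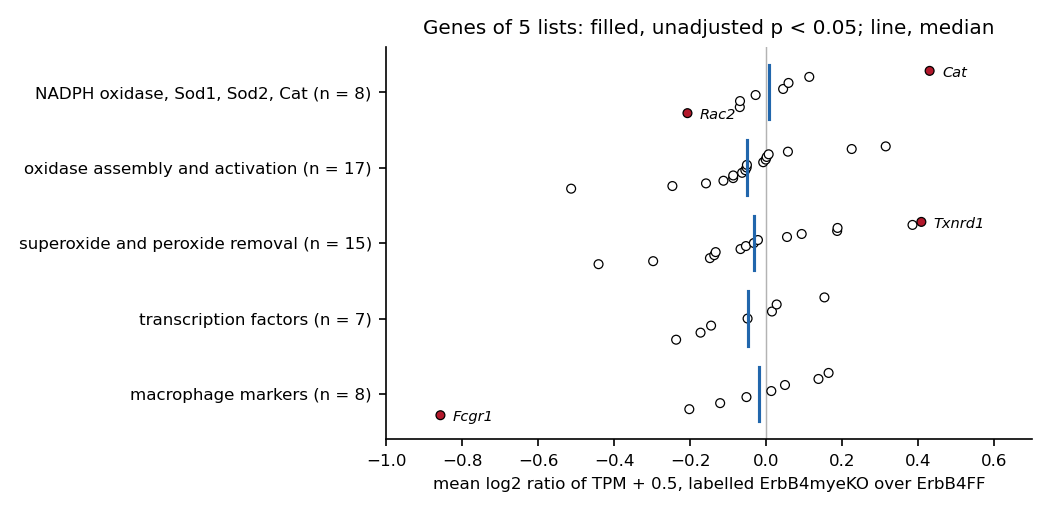
Mean log2 ratio of TPM + 0.5, labelled ErbB4myeKO over ErbB4FF (horizontal axis), of each gene tested in 5 lists (rows, with the number tested), as open circles, or filled circles with names where the unadjusted limma p was under 0.05, and a vertical line at each list's median. The medians lie between -0.05 and 0.01, and Cat, Rac2, Txnrd1 and Fcgr1 are filled.

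Markers of cell types and of growth were read beside these values. Among 8 macrophage markers 4 ratios were above 0 and 4 below, and Fcgr1, the high-affinity IgG receptor, was lower under the ErbB4myeKO label in 6 of 6 litters by a mean log2 of -0.86 ± 0.74 (SD, exact permutation p = 0.0312, limma adjusted p = 0.603). Mertk, a receptor for the uptake of dying cells, was higher in 6 of 6 litters by 0.14 ± 0.19 (SD, exact permutation p = 0.0312, limma adjusted p = 0.642), and is named after its values were seen. Itgam had a log2 ratio of -0.20 (limma adjusted p = 0.603). The 8 markers summed to between 2610 and 6234 TPM under the ErbB4myeKO label and between 2718 and 7374 TPM under the ErbB4FF label. Of 12 neutrophil markers 6 were tested, 3 with a ratio above 0 and 3 below. Among these, S100a8 lay between 27.4 and 253 TPM under the ErbB4myeKO label and between 24.8 and 97.6 TPM under the ErbB4FF label, Csf3r had a log2 ratio of -0.43 (limma adjusted p = 0.603) and Camp, at 3.73 and 2.48 TPM, was higher in 6 of 6 litters by a log2 of 0.45 (exact permutation p = 0.0312, limma adjusted p = 0.603).

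Of 8 dendritic cell markers 3 were tested and all had a ratio above 0, with Xcr1 at 0.63 and Ccr7 at 0.33 in log2 (limma adjusted p = 0.603 for both), and the list summed to between 44.6 and 122 TPM (labelled ErbB4myeKO) and between 30.7 and 94.0 TPM. Of 10 proliferation genes 9 were tested, 6 with a ratio above 0 and 3 below. The log2 ratio of Mki67 was 0.42 (limma adjusted p = 0.603, higher in 5 of 6 litters) and that of Cdk1 -0.22 (limma adjusted p = 0.652), and Pcna was at 157 and 163 TPM. An unadjusted limma p under 0.05, which 8.21% of all genes tested had, was found for 1 gene each of the macrophage (Fcgr1), neutrophil (Camp), dendritic cell (Xcr1) and proliferation (Mki67) lists. The lymphocyte and erythroid lists had no gene above the test's minimum, with Cd79a at 0.0900 and 0.0864 TPM and Hba-a1 at 0.0676 and 0.122 TPM. Cd8a was listed at 0 in all 6 libraries labelled ErbB4myeKO and Klf1 at 0 in all 6 labelled ErbB4FF, both below 1 TPM elsewhere. The part of these cell types in the values of Cat and Rac2 was not tested.

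Genes with a pattern like that of Cybb or Sod2 were sought by correlation over the 12 libraries after litter means had been removed, so that each value rests on 6 differences between littermates. Nearest to Cybb were Ecpas (Pearson r = 0.983), Dkc1 (0.979), Apc (0.976), Zbtb11 (0.975) and Huwe1 (0.965). Apart from Ecpas, at 24.9 TPM, their means lay between 1.64 and 5.08 TPM. Nearest to Sod2 were Commd2 (0.987), Epm2a (0.966), Nt5dc1 (0.957), Bcat2 (0.950) and Rnf213 (0.946), of which Rnf213 was at 72.1 TPM and the others between 1.20 and 2.23 TPM. With 6 differences and 8780 genes these correlations are descriptions, and none of the other oxidase subunits was among the nearest genes.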

How the data were processed

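RNA from cultures of 12 mice, 6 per genotype in 6 litters, was sequenced by the authors as polyA RNA with a stranded kit (single-end, 75 bp). Reads were pseudoaligned by kallisto, and the authors deposited its TPM estimates per transcript for APPRIS principal isoforms (the labels name mm10). Versions of kallisto and of the transcriptome are not given in the sources used here. TPM have the same total over all transcripts in every library, and the deposited transcripts held between 59.0% and 74.7% of it. The highest shares were those of litter 5 (71.4% labelled ErbB4myeKO, 74.7% labelled ErbB4FF). In the other litters they lay between 59.0% and 64.9%. The authors' own sleuth columns, with tests and log2 ratios, were not used. The study gives only an approximate depth per sample. Reads per library are not in the table, so the depth of each library is unknown and precision rests on the spread between litters. Genes above 0 TPM numbered between 10214 and 12985 per library.

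Of 29213 lines, 405 that repeat a transcript were dropped, and 28808 transcripts were summed to 22243 genes. The 8780 genes whose mean reached 1 TPM were fitted as log2(TPM + 0.5) by limma 3.58.1 in R 4.3.3 (eBayes with trend, litter as block), with Benjamini-Hochberg adjustment and a threshold of 0.05. A fold on this scale understates that of low genes. For single values, the 64 ways of swapping genotypes inside litters gave an exact permutation test, two-sided (Python 3.11.15, scipy 1.17.1). Littermates are paired by the labels and the methods of the study. Deviations of littermates from each gene's mean over the 12 libraries correlated at between 0.0955 (litter 2) and 0.762 (litter 5). Correlations of libraries from different litters are not given beside these. Transcript positions, lengths and shared 31-base words came from GENCODE M21, which matched all 28808 transcripts. All 9 members were named, and of each other list the 2 genes with the highest mean TPM and the 2 with the smallest p, some of which are not reported here. Members and lists were chosen with earlier results of these data known. The fit was tested on simulated data. Alternatives were no block, a covariate from 4 Y-linked genes in place of sex, pseudocounts of 0.1 and 1, a minimum mean of 5 TPM or none, median-ratio rescaling, no trend, the most abundant transcript alone, each litter left out, and, added after seeing the data, adjustment for length and GC.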

Additional observations from a re-analysis of the deposited data

Results flagged for a closer look

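In 4 of 35 groups of 6 values examined, 1 value lay farther from the others than Dixon's 95% limit allows, where chance gives about 1 in 20 groups, or 1.75 here. Of these, 3 came from litter 5, and they are not independent of each other. The ratio flagged there uses a flagged Cyba value, and the flagged Cyba libraries are littermates. Cyba was at 1407 TPM in the library labelled ErbB4myeKO of litter 5, where the other 5 lay between 543 and 749 TPM, and at 1168 TPM in its ErbB4FF littermate, where the other 5 lay between 666 and 751 TPM. The log2 ratio of Cyba to Cybb was 1.85 in the library labelled ErbB4myeKO of litter 5 and between -1.24 and -0.34 in the others. The log2 ratio of Ncf4 between littermates was -0.39 in litter 3 and between -0.08 and 0.07 in the other litters.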

How the results depend on the processing

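Of 404 recomputed values, 383 were stable (effects kept their direction and side of the threshold, counts stayed within 1.5 times, and mean TPM within 1 SD), 14 counts moved by over 1.5 times and 7 values reversed. Many of these could not move. Each gene of the system has 1 transcript in the table, so the most abundant transcript alone repeats its ratio. No block, no trend, no filter and a minimum of 5 TPM leave the log2 ratios of the 8 genes tested as they were. No gene of the system came near the adjusted threshold in any setting (smallest limma adjusted p 0.4996, Cat without litter 5). Reversals were a log2 ratio of Sod1 of -0.037 without litter 2, Cyba of 0.010 and Rac1 of 0.022 without litter 3, Rac1 of 0.027 without litter 4, Sod2 of 0.017 without litter 5, and of Rac2 to Rac1 of 0.10 at a pseudocount of 0.1 and 0.094 without litter 1. The causes were not tested. Without the replicate block, 75 genes and 0 of the genes of the system had an unadjusted p under 0.05, with a limma p of 0.317 for Cat and 0.452 for Rac2, and the block changed no call at the adjusted threshold. Without trend and with the Y-linked covariate, 1 of the genes of the system, Cat, had an unadjusted p under 0.05 (limma p for Rac2 of 0.0677 and 0.0753).

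With 1 litter left out at a time, where the smallest permutation p is 0.0625, genes with an adjusted p under 0.05 numbered between 0 and 1 (1 without litter 3), with an unadjusted p under 0.05 between 410 (without litter 2) and 860, and with 1 direction in all litters between 567 and 973. Genes of the system with an unadjusted p under 0.05 numbered between 1 and 2. The log2 ratio then ranged from 0.32 to 0.51 for Cat, -0.25 to -0.15 for Rac2, 0.08 to 0.14 for Cybb, -0.14 to 0.010 for Cyba, 0.00 to 0.11 for Ncf1, -0.10 to -0.00 for Ncf4, -0.037 to 0.13 for Sod1, -0.056 to 0.017 for Sod2, -0.35 to 0.027 for Rac1 and -0.27 to 0.094 for Rac2 to Rac1. Rac1, below the minimum, has no value under settings that need limma, other than no filter.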
